A study of Bos taurus with 14 samples.

Results

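The muscle miRNAs, often called myomiRs, were followed in white cells of peripheral blood (PWBC) from 14 beef heifers. They are bta-miR-1, bta-miR-133a, bta-miR-133b, bta-miR-206, bta-miR-208a, bta-miR-208b and bta-miR-499, chosen by name as the miRNAs best known from heart and skeletal muscle. These 7 names are among the 1030 mature miRNAs of the count table, of which 614 had at least 1 count. Of the 7, 5 had a count in some heifer and 2 passed the filter on low counts and were tested.

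The study sequenced the small RNA of 14 Angus-Simmental crossbred heifers, 1 library per animal, from blood drawn at weaning and before any breeding. The fertile heifers (FH, n = 7) later became pregnant to artificial insemination, and the subfertile heifers (SFH, n = 7) were found not pregnant after insemination and a season with bulls. Both groups were raised at 1 research station, later had the same synchronization, insemination and bull exposure, and were picked from a larger cohort so that age and weight matched. The cells were the whole white cell fraction, without sorting, so that fewer cells of a type and less RNA per cell cannot be told apart. The heifers are named here by group and by the number on their label.

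The myomiRs come from a small set of genes. In muscle, miR-1 and miR-133a are cut from shared primary transcripts, and so are miR-206 and miR-133b, which belong to skeletal muscle and its progenitors. miR-208a, miR-208b and miR-499 lie within the genes of myosin heavy chains and are processed with them, miR-208a in the heart, miR-208b and miR-499 in heart and slow muscle fibres. miR-1 favours differentiation of myoblasts, miR-133a favours their proliferation, and the miR-208 and miR-499 group tunes the type of myosin. White blood cells are not a known site of strong myomiR expression, and several of these miRNAs are measured in plasma after injury to muscle or heart.

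For the 7 names, 9 precursor genes were matched in RefSeq on the assembly ARS-UCD2.0. Since the files use ARS-UCD1.2, only neighbours are given. *MIR133A-1* and *MIR1-1* are neighbours that both overlap the protein-coding gene *LOC132346930*, beside *GATA5*, and *MIR1-2* and *MIR133A-2* are neighbours within *MIB1*. *MIR206* and *MIR133B* are neighbours within the same long noncoding RNA gene. *MIR208A* lies in *MYH6*, *MIR208B* in *MYH7* and *MIR499* in *MYH7B*. In the count table bta-miR-1 and bta-miR-133a each have 2 entries, and each has 2 matched precursor genes. The entries name no precursor and hold identical counts, so the source gene of a read is unknown. miR-133a and miR-133b differ only at the 3′ end, so reads of this pair are uncertain between them. miR-1 and miR-206 share their seed, and whether reads were exchanged between these 2 was not tested. bta-miR-133c, a further relative whose gene overlaps *MIR133A-1*, had 0 counts in all 14 heifers.

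The libraries held 1754971 to 5468341 counts on mature miRNAs (median 2870197), and levels are given as CPM, the count scaled to that total. A mature miRNA is read whole, so no correction for length applies. A count of 0 allows up to 3 counts, which is 0.549 to 1.71 CPM across the libraries. This limit and the intervals below are for counting error only, as no removal of PCR copies is described. The cell type of the label was borne out by its markers, since all 8 leukocyte miRNAs were counted in all 14 heifers and summed to 89373 to 187097 CPM. Of the 3 erythroid markers, 2 were in every heifer and bta-miR-144 was at 0 throughout, with a sum of 1462 to 9234 CPM. All 5 epithelial markers in the table had a count and 1 was in every heifer, with a sum of 55.9 to 249 CPM. The liver marker bta-miR-122 did not exceed 4.65 CPM.

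bta-miR-499 was the most abundant myomiR and was present in every heifer. It held 1336 counts in all, rank 205 of the 614 miRNAs with a count, and 213 of those were likewise found in all 14 heifers. In FH its level was 52.8 CPM in heifer 20, 45.4 in heifer 22, 38.7 in heifer 24, 29.6 in heifer 25, 39.7 in heifer 27, 7.77 in heifer 29 and 6.03 in heifer 31. In SFH it was 13.9 CPM in heifer 17, 64.2 in heifer 21, 18.1 in heifer 23, 22.3 in heifer 26, 41.9 in heifer 28, 30.3 in heifer 30 and 50.8 in heifer 32. The groups overlapped over nearly their whole range, with the lowest values in FH heifers 29 and 31 and the highest in SFH heifer 21. The highest level was 10.7 times the lowest. The exact Poisson 95% intervals of these heifers, 54.9 to 74.6 CPM in heifer 21 and 3.68 to 9.31 CPM in heifer 31 did not overlap. No heifer stood apart from its group by the gap rule given further below.

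**Figure D1:**
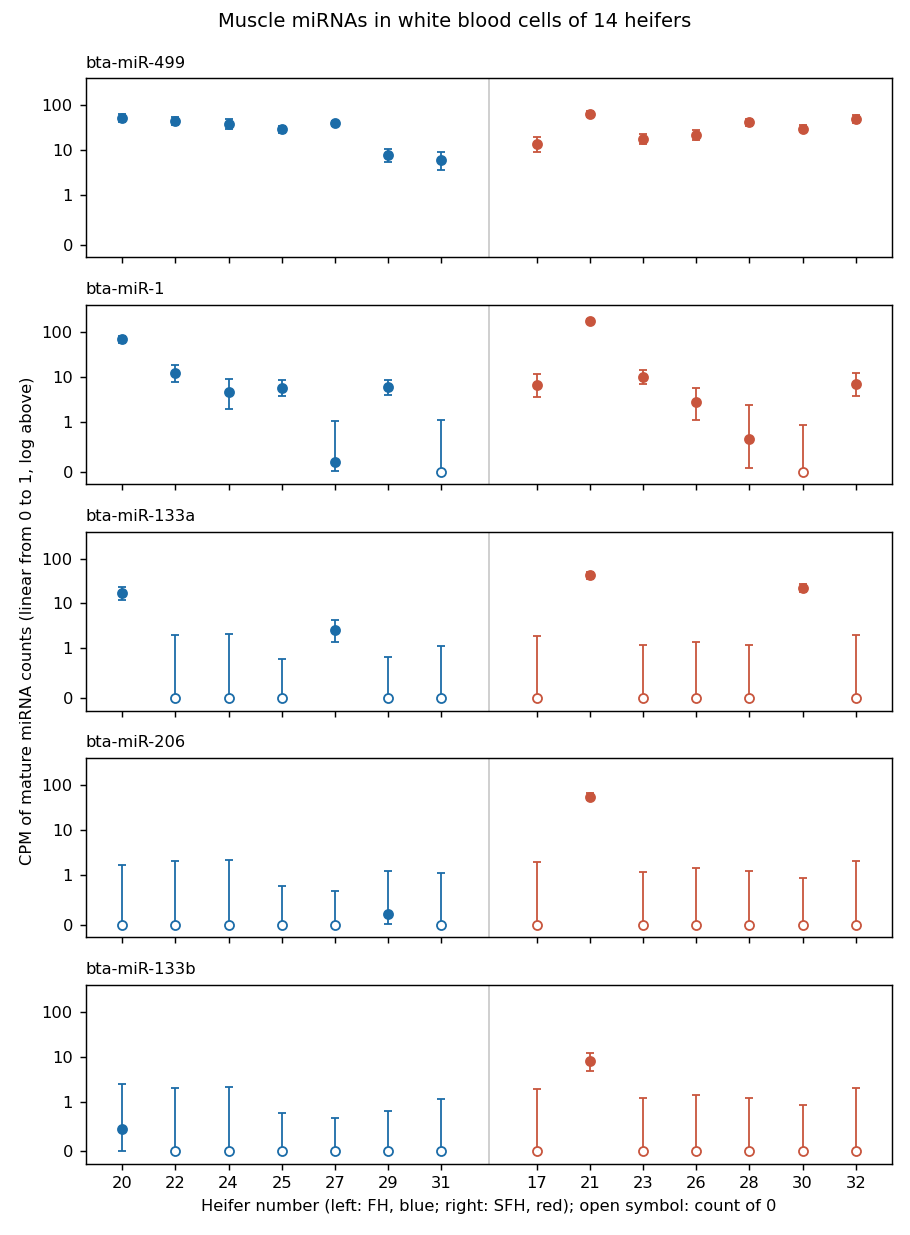
CPM of the 5 detected muscle miRNAs in each heifer (FH in blue, SFH in red), with exact Poisson 95% intervals as bars, on an axis that is linear from 0 to 1 and logarithmic above. Open symbols mark counts of 0. bta-miR-499 is present in all 14 heifers, whereas bta-miR-206 reaches 55.9 CPM in SFH heifer 21 and has 1 count elsewhere.

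bta-miR-1, the main miRNA of heart and skeletal muscle, was low in most heifers and high in heifer 20 of FH and heifer 21 of SFH. It held 775 counts (rank 230 of 614) and was found in 12 heifers, 6 in each group. In FH its level was 68.7 CPM in heifer 20, 12.0 in heifer 22, 4.56 in heifer 24, 5.70 in heifer 25, 0.183 in heifer 27 and 5.99 in heifer 29, with a count of 0 in heifer 31. In SFH it was 6.67 CPM in heifer 17, 176 in heifer 21, 10.01 in heifer 23, 2.69 in heifer 26, 0.650 in heifer 28 and 7.10 in heifer 32, with a count of 0 in heifer 30. Heifer 20 was 5.71 times the next FH heifer and heifer 21 was 17.6 times the next SFH heifer. The other 12 heifers lay between 0 and 12.0 CPM with a median of 5.13 CPM. The counts of 0 allow up to 0.904 CPM in heifer 31 and 0.758 CPM in heifer 30. bta-miR-1 exceeded bta-miR-499 in these same heifers 20 and 21, and was below it in the other 12.

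bta-miR-133a, the partner of miR-1, was counted in 4 heifers, 2 of each group. FH heifer 20 had 38 counts (16.8 CPM) and FH heifer 27 had 14 counts (2.56 CPM). SFH heifer 21 had 114 counts (42.8 CPM) and SFH heifer 30 had 87 counts (22.0 CPM). The other 10 heifers had 0 counts. Heifers 20 and 21, the highest for bta-miR-1, were thus among the 4, but heifers 27 and 30 had 1 count and 0 counts of bta-miR-1.

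bta-miR-206 and bta-miR-133b, the skeletal muscle pair, were nearly confined to SFH heifer 21. Heifer 21 had 149 of the 150 counts of bta-miR-206, or 55.9 CPM, and the remaining count was in FH heifer 29 (0.222 CPM). It had 21 of the 22 counts of bta-miR-133b, or 7.88 CPM, and the remaining count was in FH heifer 20 (0.443 CPM). A lone count lies below the 3 counts that a 0 allows, so heifers 29 and 20 are not told apart from the heifers at 0. bta-miR-208a and bta-miR-208b, the miRNAs of the cardiac myosin genes, had 0 counts in all 14 heifers. Over the 43043889 counts of all libraries, 3 counts correspond to 0.0697 CPM.

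The number of heifers with a count was equal in the groups for each of the 4 myomiRs found in some heifers only (6 and 6, 2 and 2, 1 and 1, 1 and 1 in FH and SFH). Fisher's exact test, two-sided, gave p = 1.0 for each, a value that equal numbers fix in advance. For bta-miR-133b and bta-miR-206 the FH heifer had a lone count, and at 3 counts or more only SFH heifer 21 remained. Of the 614 miRNAs with a count, 153 (24.9%) were found in at most 2 heifers and 212 (34.5%) in at most 4. Among the 372 with at least 100 counts, a limit chosen after the values were seen, these were 1 (0.269%) and 5 (1.34%). bta-miR-206 with 150 counts and bta-miR-133a with 253 counts belong to those 372.

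The share of a miRNA's counts held by its top heifer ranged widely among the myomiRs. Among the 372 miRNAs with at least 100 counts, a limit chosen after the values were seen that also takes in far more abundant miRNAs, the heifer with most counts held a median of 19.5% of them. For bta-miR-206 this share was 99.3%, and no other of the 372 reached 90% or was found in at most 2 heifers. For bta-miR-1 it was 60.5%, a share of at least 60% being reached by 4 of the 372. For bta-miR-133a it was 45.1%, with 33 of the 372 at 40% or more. For bta-miR-499 it was 16.2%, below the median. bta-miR-133b, with only 22 counts, had 95.5% in 1 heifer. Among the 497 miRNAs with at least 20 counts, 28 had 95% or more in 1 heifer. bta-miR-1, bta-miR-133a, bta-miR-133b and bta-miR-206 together had 1200 counts, of which heifer 21 held 62.8%, heifer 20 held 16.2%, heifer 30 held 7.25% and heifer 27 held 1.25%. The other 10 heifers shared 12.6%.

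**Figure D2:**
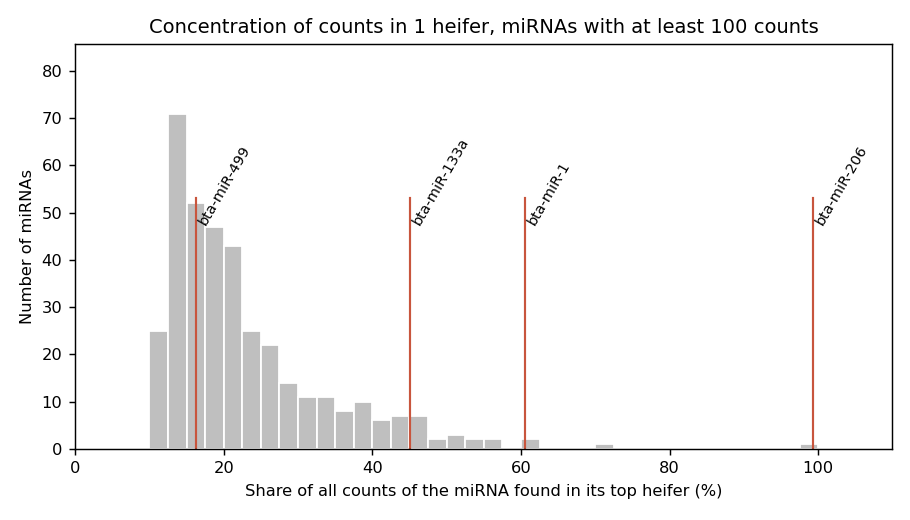
Histogram of the share of a miRNA's counts found in its top heifer (percent, horizontal axis) over the 372 miRNAs with at least 100 counts (number of miRNAs, vertical axis), with red lines at 4 muscle miRNAs. bta-miR-206 is at 99.3%, beyond every other miRNA of the histogram, and bta-miR-499 at 16.2% lies among the most common shares.

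The balance of bta-miR-1 and bta-miR-133a differed between heifers. In heifer 20 there were 4.08 counts of bta-miR-1 per count of bta-miR-133a (95% interval 2.84 to 5.98) and in heifer 21 there were 4.11 (3.35 to 5.09). These ratios, from the exact binomial (Clopper-Pearson) interval of the share, were nearly equal in an FH and an SFH heifer. In heifer 30 the share of bta-miR-1 among both was 0 of 87 counts, with an upper limit of 4.15% by the same interval. In heifer 27 bta-miR-133a made up 14 of 15 counts, or 93.3% (68.1 to 99.8%). In the remaining 9 heifers with bta-miR-1, which had 2 to 31 counts each, bta-miR-133a had none beside 150 counts of bta-miR-1 in all. Their single upper limits ran from 11.2% in heifer 23 to 84.2% in heifer 28, so a share of 19.6% (16.4 to 23.0%), as in heifer 21, lay within the interval of 5 of these 9. Added together, these 9 heifers had an upper limit of 2.43%. They were grouped for having none, so this limit was set by the choice and no conclusion is drawn from it. The intervals compare libraries, not conditions, and PCR copies would make them too narrow.

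**Figure D3:**
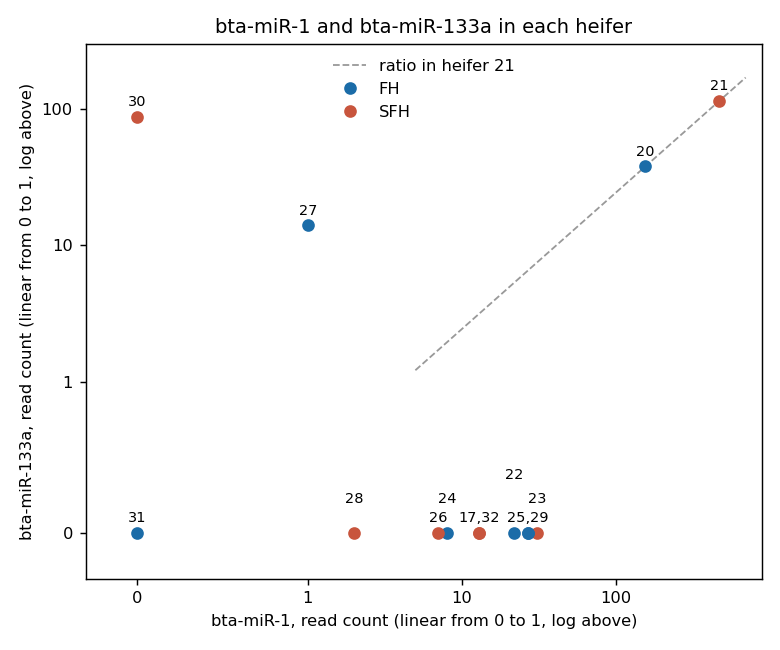
Read counts of bta-miR-1 (horizontal) and bta-miR-133a (vertical) in each heifer, labelled by heifer number, FH in blue and SFH in red, on axes that are linear from 0 to 1 and logarithmic above. Heifers 20 and 21 lie on the dashed line of equal ratio at 4.11 counts of bta-miR-1 per count of bta-miR-133a, heifers 27 and 30 lie far to its left, and the others have no bta-miR-133a.

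The skeletal muscle pair separated heifers 20 and 21, which were also the extremes of detection. Heifer 20 had a count for 296 miRNAs, the fewest of any heifer, and heifer 21 for 425, the most. The part of this difference in the contrast below was not tested. In heifer 21 there were 3.15 counts of bta-miR-1 per count of bta-miR-206, so that bta-miR-206 was at 31.8% of the bta-miR-1 count. In heifer 20 bta-miR-206 had 0 counts beside 155 of bta-miR-1, and the 3 counts that a 0 allows are 1.94% of that. In heifer 21 bta-miR-133b made up 15.6% of the counts on bta-miR-133a and bta-miR-133b, and heifer 30 had 87 counts on bta-miR-133a and 0 on bta-miR-133b. Heifer 21 was the only heifer with more than 1 count of either miRNA of the skeletal muscle pair.

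By the gap rule, a heifer stood apart when its gap to the nearest other heifer was a larger share of its group's range than Dixon's 95% limit for 7 values (on CPM). Heifer 20 stood apart in FH for bta-miR-1, bta-miR-133a and bta-miR-133b, and heifer 29 for its lone count of bta-miR-206. Heifer 21 stood apart in SFH for bta-miR-1, bta-miR-133b and bta-miR-206. For bta-miR-133a the gap between SFH heifers 21 and 30 was 0.487 of the range. With only 1 heifer at a count, as for bta-miR-133b and bta-miR-206 in both groups, the gap is the whole range by construction. Of all 341 tested miRNAs, which do not include these, 16.4% had a heifer apart in FH and 11.7% in SFH, and bta-miR-1 was among these in both groups. Among the 341 tested miRNAs, heifer 21 was not often the odd animal. It was apart on the high side of SFH for 4 of the 341 miRNAs, where the other SFH heifers were so for 3 to 11. It had the highest level of all 14 heifers for 4.69% of them, where the other heifers ranged from 3.52 to 12.0%. The 341 leave out sparse miRNAs such as bta-miR-206 and bta-miR-133b. Over all miRNAs, heifer 21 had a count for 425, the most of the 14 heifers, where the others had 296 to 414.

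Markers of other cells were compared in the 4 heifers with a count of bta-miR-133a, which are heifers 20, 21, 27 and 30. Heifer 21 had the lowest sum of the 8 leukocyte markers (89373 CPM) and the highest sum of the 6 platelet, endothelial and stromal markers, 605 CPM where the SFH heifers had a median of 372 CPM and the FH heifers 197 to 345 CPM. Most of that sum was 1 miRNA, bta-miR-143, found in smooth muscle and fibroblasts, at 514 CPM in heifer 21 and 57.1 to 300.2 CPM in the other 13 heifers. The other 5 markers of the list summed to 90.9 CPM in heifer 21, 6th of the 14 heifers, and to 45.2 to 153 CPM over all heifers. They were higher in heifers 20 (110.4 CPM), 27 (109 CPM) and 30 (121 CPM) than in heifer 21. Heifer 20 was 6th of 14 for the whole sum with 309 CPM. Heifer 30, with bta-miR-133a but no count of bta-miR-1, had the lowest sum of all 6 stromal markers (178 CPM) and the highest leukocyte sum (187097 CPM). It also had the highest erythroid sum, 9234 CPM against a median of 2415 CPM in SFH and 1574 to 3712 CPM in FH. Heifer 27 had the leukocyte sum next to the lowest (96527 CPM). Heifer 21 was also 2nd of the 14 heifers for the epithelial sum (235 CPM) and 4th for the liver marker. Heifers 27, 30 and 20 were 8th, 9th and 11th for the epithelial sum, and each had 0 CPM of the liver marker. The part of these cells in the myomiR counts was not tested.

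The design asks whether the level at weaning differed between heifers that later became pregnant and those that did not. Neither tested myomiR passed when SFH was set against FH over 341 miRNAs by the quasi-likelihood test of edgeR. bta-miR-1 had a log2 fold change of 1.06 (standard error 1.31, unadjusted p = 0.429, Benjamini-Hochberg adjusted p = 0.947) and ranked 146th of 341 by p. bta-miR-499 had a log2 fold change of 0.10 (standard error 0.57, unadjusted p = 0.863, adjusted p = 0.977 by edgeR) and ranked 296th. These are 0 of 2 myomiRs, beside 0.0% of all 341 called at an adjusted p of at most 0.05, 5.87% (20 miRNAs) at an unadjusted p of at most 0.05, and 3.81% (13 miRNAs) past the thresholds of the study's methods, which add to that p a log2 fold change of 0.5 or more in size. DESeq2 gave 2 adjusted calls over the 341 and limma-voom 0, neither tool calling a myomiR. The standard error of bta-miR-1 leaves room for a large difference in either direction.

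The mean level of bta-miR-1 was 13.9 ± 24.5 CPM (SD, n = 7) for FH against 29.0 ± 65.0 CPM (SD, n = 7) for SFH, and its medians were 5.70 and 6.67 CPM. On log2(TMM-normalized CPM + 0.5), SFH exceeded FH by 0.16 (exact two-sided permutation test, p = 0.896, adjusted over the 341 p = 0.973). bta-miR-499 had 31.4 ± 18.2 CPM (SD, n = 7) for FH against 34.5 ± 18.6 CPM (SD, n = 7) for SFH, with medians of 38.7 and 30.3 CPM. Its difference on the log2 scale was 0.23 (exact two-sided permutation test, p = 0.684, adjusted over the 341 p = 0.952). Mean and median therefore pointed in opposite directions for bta-miR-499. The spread between heifers of a group was large for bta-miR-1, with an SD of 2.57 on the log2 scale, the 6th highest of the 341 miRNAs. bta-miR-499 was close to the middle at 1.02, rank 158, where the median miRNA had 0.91.

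Single heifers set the direction of bta-miR-1. Without SFH heifer 21 its log2 fold change in edgeR was −1.68 (standard error 1.35), and without FH heifer 20 it was 2.53 (standard error 1.41), with adjusted p-values of 0.954 and 0.892. Without both it was −0.18 (standard error 1.34), a setting chosen after the data were seen. The CPM of the remaining heifers was then 4.75 ± 4.45 (SD, n = 6) for FH against 4.52 ± 4.005 (SD, n = 6) for SFH. DESeq2 by default replaces counts that it takes as outliers, and it did so for 155 counts in heifer 20 and 469 counts in heifer 21, giving a log2 fold change of −0.15 (standard error 1.19). bta-miR-1 was the 1 miRNA of the 341 with a replaced count. The log2 fold change of bta-miR-499 ranged from −0.14 to 0.25 as each heifer was omitted in turn.

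**Figure D4:**
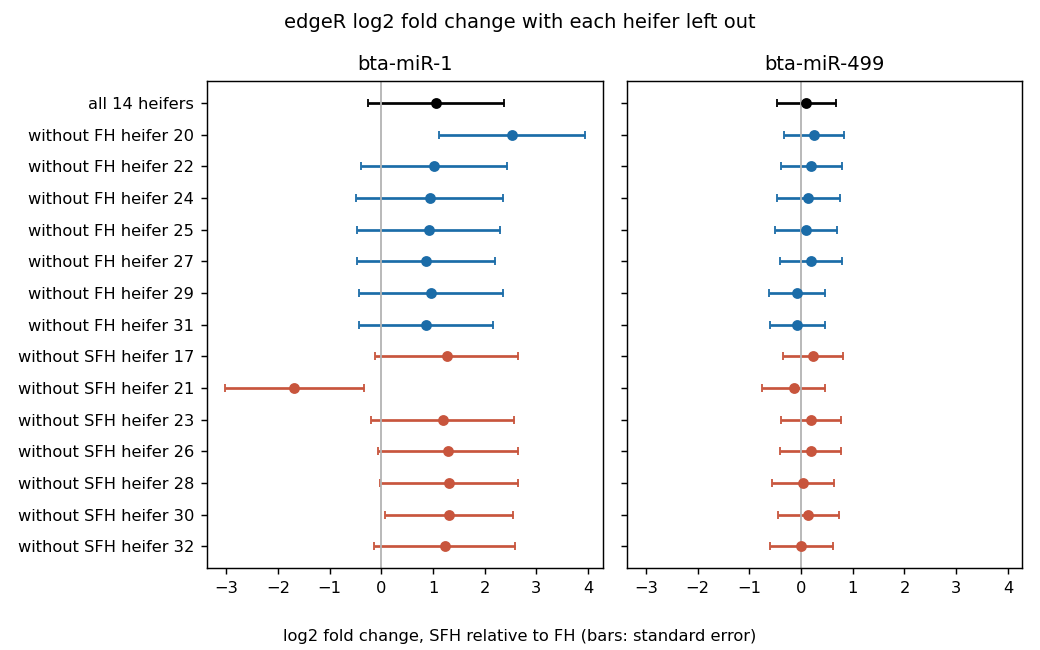
Log2 fold change (SFH relative to FH, edgeR) of bta-miR-1 and bta-miR-499 with all 14 heifers (black) and with each heifer left out in turn (blue for FH, red for SFH), with standard errors as bars. bta-miR-1 moves to −1.68 without heifer 21 and to 2.53 without heifer 20, while bta-miR-499 stays between −0.14 and 0.25.

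The other myomiRs did not pass the filter and had no place in the test of 341. In a fit of all 614 miRNAs without a filter, bta-miR-206 had an unadjusted p of 0.00457 and an adjusted p of 0.142 (edgeR), with 149 of its 150 counts in heifer 21. In that fit 126 of the 614 passed the thresholds of the study's methods and 0 had an adjusted p of at most 0.05. Its unadjusted p in edgeR was 0.291 when heifer 21 was left out of the fit. In the same pair of edgeR fits, the unadjusted p went from 0.0912 to 0.291 for bta-miR-133b and from 0.292 to 0.797 for bta-miR-133a. Without heifer 21, bta-miR-206 and bta-miR-133b each kept a lone count, so the second fit cannot decide on either.

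Across the heifers, bta-miR-1 and bta-miR-499 were compared as the 1 pair of myomiRs that passed the filter, so no adjustment applies. Pearson's r on the log2 scale was 0.40 (permutation test, p = 0.157) and Spearman's rho was 0.44 (permutation test, p = 0.118) over 14 heifers. On linear CPM r was 0.61 (permutation test, p = 0.00322), so the call depended on the scale. Heifer 21 lay farthest from the median of bta-miR-1, and heifers 30 and 31, both at 0 counts, tied behind it. Without heifers 21 and 31 r was −0.04 (permutation test, p = 0.912), without heifers 21 and 30 it was 0.32 (permutation test, p = 0.312), and without all 3 it was −0.02 (permutation test, p = 0.954). Of these, the settings with heifer 30 out were chosen after the data were seen. Within FH r was 0.51 (exact permutation test, p = 0.234, n = 7) and within SFH 0.29 (exact permutation test, p = 0.558, n = 7). The values share the library total of each heifer.

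Among the 339 tested miRNAs outside the myomiRs, those most like bta-miR-1 by Spearman's rho over the 14 heifers were bta-miR-345-3p (0.71), bta-miR-326 (0.66) and bta-miR-4286 (0.64). All 3 are counted in every heifer, with at least 60 counts. The one most like bta-miR-499 was bta-miR-11972, with a rho of 0.92 over the 14 heifers, 0.92 within FH and 0.90 within SFH. The next were bta-miR-450a (0.74) and bta-miR-2904 (0.60). bta-miR-11972 is a sparse miRNA, with 0 counts in heifers 17, 26, 29 and 31, which are 4 of the 5 heifers lowest for bta-miR-499, and 157 counts (85.7 CPM) in heifer 32. The median rho of bta-miR-499 with the 339 was 0.02. These names were picked for their likeness, so no test is given, and the values again share the library totals.

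**Figure D5:**
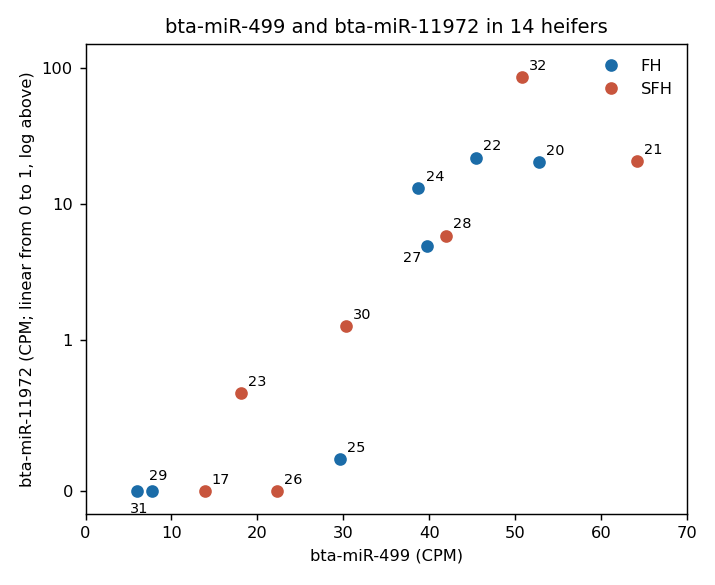
CPM of bta-miR-499 (horizontal) and bta-miR-11972 (vertical, linear from 0 to 1 and logarithmic above) in each heifer, labelled by heifer number, FH in blue and SFH in red. Heifers 17, 26, 29 and 31 have no bta-miR-11972, and heifers above 38 CPM of bta-miR-499 have 4.94 to 85.7 CPM of it.

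A further list held 15 miRNAs with roles in muscle that many tissues also express. Of these, 13 were tested, bta-miR-214 and bta-miR-503-5p being too low. At an adjusted p of at most 0.05, 0 of the 13 and 0 of all 341 were called in edgeR. At an unadjusted p of at most 0.05, 1 of the 13 was higher in SFH and 0 were lower. Over all 341 miRNAs, 20 (5.87%) met that unadjusted p in either direction. The 1 of the list was bta-miR-24-3p, which represses cell cycle genes. Its level was 5040 ± 1106 CPM (SD, n = 7) for FH against 7036 ± 1671 CPM (SD, n = 7) for SFH. Its log2 fold change was 0.40 (standard error 0.19, unadjusted p = 0.0456, adjusted p = 0.829 by edgeR). The median log2 fold change of the 13 was 0.09, beside 0.06 over all 341. The list did not follow the myomiRs into heifer 21, which ranked 2nd to 14th of the 14 heifers for its members. bta-miR-486, which muscle shares with red blood cells, had 1081 ± 613 CPM (SD, n = 7) for FH against 1083 ± 578 CPM (SD, n = 7) for SFH.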

How the data were processed

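Small RNA of PWBC was sequenced from 7 FH and 7 SFH heifers. The authors trimmed reads with Cutadapt, aligned them with miRDeep2 to ARS-UCD1.2 and miRBase, and deposited raw counts per mature miRNA. Some names have several entries. They also deposited CPM for 341 miRNAs, computed with edgeR 3.28.1, and these equal the counts over the total of the 341. The members, lists and tests were chosen with earlier results of these data known. For a miRNA with several entries, that with the highest total represents it, and CPM here is over the total of all mature miRNAs.

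The filter was a CPM of 1 or more in 7 or more heifers, and the miRNAs it left were tested in edgeR 4.0.16 (R 4.3.3), with TMM and the quasi-likelihood F-test, group as the only term, and Benjamini-Hochberg adjustment over the 341. Standard errors were derived from fold change and F. Exact permutation tests used all 3432 arrangements (smallest p 0.000583), and the relation of bta-miR-1 and bta-miR-499 used 100000 permutations. DESeq2 1.42.0 and limma 3.58.1 were alternatives. Poisson and binomial intervals are exact at 95%. Scripts were tested on simulated data. Named are the myomiRs, the 3 miRNAs most like each tested one, and listed muscle miRNAs with an unadjusted p of at most 0.05. bta-miR-143, bta-miR-486, bta-miR-133c and marker miRNAs fall outside that rule and were added with values known. The sources used here name no preparation batch.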

Additional observations from a re-analysis of the deposited data

Results flagged for a closer look

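In 7 of the 10 groups of 7 heifers in which a detected myomiR was examined, 1 heifer lay far from the others. In 4 of the 7, those of bta-miR-133b and bta-miR-206, only 1 heifer had a count, so that the gap was the whole range by construction and says nothing beyond detection in 1 heifer. For the other 3, chance alone gives such a gap in about 1 of 20 groups of normally distributed values, and in these libraries it occurred for 16.4% of the 341 tested miRNAs in FH and 11.7% in SFH. bta-miR-133a was not among those tested. FH heifer 20 was far above its group for bta-miR-1 (68.7 CPM, next heifer 12.0 CPM) and for bta-miR-133a (16.8 CPM, next heifer 2.56 CPM). SFH heifer 21 was far above its group for bta-miR-1 (176 CPM, next heifer 10.01 CPM), for bta-miR-206 (55.9 CPM, all others at 0) and for bta-miR-133b (7.88 CPM, all others at 0). In FH, bta-miR-133b in heifer 20 (0.443 CPM) and bta-miR-206 in heifer 29 (0.222 CPM) were each set apart by 1 count, which is under the 3 counts that a 0 allows.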

How the results depend on the processing

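Neither tested myomiR reached an adjusted p of 0.05 in any fit that gave it a p, so the alternatives bear on direction and size. The log2 fold change of bta-miR-1 changed sign in DESeq2 (−0.15) and without heifers 20 and 21 (−0.18), and ranged from −1.68 to 2.53 with 1 heifer left out. It was 0.31 in limma-voom, and 1.02 with DESeq2 kept from replacing outlying counts, which then gave bta-miR-1 no p. It could not be fitted with a CPM of at least 1 required in all 14 heifers, where it has no place. For bta-miR-499 the range with 1 heifer left out was −0.14 to 0.25, below 0 without FH heifer 29, FH heifer 31 or SFH heifer 21. The difference on the log2 scale was −0.038 for bta-miR-1 without heifers 20 and 21, −0.67 to 0.795 with 1 heifer left out (below 0 without heifer 21, 27 or 31), and −0.11 to 0.42 for bta-miR-499 (below 0 without heifer 31). Other scalings, pseudocounts and choices of entry changed neither sign. Detection at 3 counts or at 1 CPM left bta-miR-133b and bta-miR-206 in 1 heifer each, and did not move the other myomiRs by over 1.5 times. On the log2 scale 4 groups had a heifer apart in place of 7, the 4 with a count in only 1 heifer. Pearson's r of bta-miR-1 and bta-miR-499 was 0.61 on linear CPM (permutation test, p = 0.00322), 0.22 to 0.50 with 1 heifer left out −0.035 without heifers 21 and 31, 0.32 without 21 and 30 and −0.019 without all 3, and Spearman's rho was 0.30 to 0.54 with 1 heifer left out.

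Over all miRNAs, the adjusted calls were 2 in DESeq2 with or without replacement and 1 with every entry of a name kept. They were 0 to 1 with 1 heifer left out (1 without FH heifer 27). Calls past the study's thresholds were 23 in limma-voom, 126 without a filter, 20 with every entry kept, 20 without heifers 20 and 21, and 11 to 21 with 1 heifer left out (21 without FH heifer 24, 20 without FH heifer 27), in place of 13. The causes were not tested. No paired analysis was possible because the heifers of the groups share no number.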
